A study of Mus musculus with 48 samples.

Results

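The 8 Cyp3a cytochromes Cyp3a11, Cyp3a13, Cyp3a16, Cyp3a25, Cyp3a41a, Cyp3a41b, Cyp3a44 and Cyp3a59 were found by symbol among the 55414 genes of a liver RNA-seq count table and were followed across 48 mice. The mice were animals of the FCG (core genotypes) model, in which Sry, the testis-determining gene, is missing from the Y chromosome (written XY-) and is carried by an autosomal transgene (SryTg), so that the gonad and the sex chromosomes are inherited separately. The genotypes XX and XY- form ovaries (called XX Ov and XY Ov here), and XX;SryTg and XY-;SryTg form testes (XX Te and XY Te). Mice of each genotype either kept their gonads (Intact) or lost them by gonadectomy (GDX) at 75 days of age, which gave 8 groups of 6 mice on a C57BL/6 background. All of them, controls included, ate a high-fat diet (HFD) with 60% of calories from fat that began at 15 to 17 weeks of age and lasted 11 weeks in Intact mice and 15 weeks in GDX mice by the sample labels, while the study's methods give other lengths and also a longer diet for GDX mice. No group ate another diet, GDX and diet length cannot be told apart, and any action of the transgene outside the gonad goes with the testes.

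CYP3A enzymes are haem-containing monooxygenases of the endoplasmic reticulum that oxidise steroids, bile acids and many drugs, and the liver is their main site. They draw electrons from the reductase Por and cytochrome b5, and their genes are induced by foreign compounds and bile acids through the nuclear receptors Nr1i2 (PXR) and Nr1i3 (CAR). In mice Cyp3a11 is the principal enzyme of adult liver in both sexes, Cyp3a41 and Cyp3a44 are known as female-predominant genes whose sex bias follows the pattern of growth hormone release, and Cyp3a16 is best known from fetal and young liver.

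All 8 genes lie on chromosome 5. In the mouse assembly NCBIM37, 7 of them and the near-silent Cyp3a57 formed a cluster of 0.819 Mb, and Cyp3a13 lay 7.74 Mb away. The 250 bases before each gene start, from RefSeq on GRCm38.p6, are shown for the 4 genes that were higher in mice with ovaries (Cyp3a41a, Cyp3a41b, Cyp3a44 and Cyp3a16) and for 3 neighbours that were not, so that the windows can be set side by side. They span chr5:145720137-145720386 (Cyp3a41a), chr5:145584731-145584980 (Cyp3a41b), chr5:145805875-145806124 (Cyp3a44), chr5:145469724-145469973 (Cyp3a16), chr5:145879855-145880104 (Cyp3a11) and chr5:146009619-146009868 (Cyp3a25), all on the minus strand, and chr5:146079008-146079257 (Cyp3a59) on the plus strand. Each is written 5′ to 3′ and ends at the base before the gene start, and capitals mark TGTTTAC, a core sequence bound by FOXA factors, and ATCAAT, a core sequence bound by HNF6 (Onecut1), or their reverse complements.
Cyp3a41a: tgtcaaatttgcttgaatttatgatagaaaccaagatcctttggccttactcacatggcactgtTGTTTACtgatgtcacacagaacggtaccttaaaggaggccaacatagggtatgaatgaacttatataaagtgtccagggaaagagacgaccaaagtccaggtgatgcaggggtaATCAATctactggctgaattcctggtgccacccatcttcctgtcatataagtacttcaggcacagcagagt
Cyp3a41b: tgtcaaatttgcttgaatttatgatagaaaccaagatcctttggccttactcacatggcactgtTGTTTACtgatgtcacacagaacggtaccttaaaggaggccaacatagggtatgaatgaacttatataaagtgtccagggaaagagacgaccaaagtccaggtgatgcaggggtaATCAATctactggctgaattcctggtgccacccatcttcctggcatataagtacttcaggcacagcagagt
Cyp3a44: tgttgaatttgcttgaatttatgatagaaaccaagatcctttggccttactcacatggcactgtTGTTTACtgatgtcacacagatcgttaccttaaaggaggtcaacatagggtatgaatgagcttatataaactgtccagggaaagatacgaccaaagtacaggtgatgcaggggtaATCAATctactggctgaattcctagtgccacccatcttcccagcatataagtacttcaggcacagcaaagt
Cyp3a16: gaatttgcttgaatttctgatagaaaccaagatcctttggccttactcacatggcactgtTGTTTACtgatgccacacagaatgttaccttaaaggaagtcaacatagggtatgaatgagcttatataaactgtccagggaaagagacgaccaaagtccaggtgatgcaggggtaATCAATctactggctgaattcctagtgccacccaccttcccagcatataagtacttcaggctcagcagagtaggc
Cyp3a11: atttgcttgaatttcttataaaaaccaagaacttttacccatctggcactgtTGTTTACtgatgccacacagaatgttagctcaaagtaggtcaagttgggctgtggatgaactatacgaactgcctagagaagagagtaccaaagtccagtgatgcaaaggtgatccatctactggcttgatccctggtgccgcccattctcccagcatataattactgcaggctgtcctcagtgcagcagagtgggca
Cyp3a25: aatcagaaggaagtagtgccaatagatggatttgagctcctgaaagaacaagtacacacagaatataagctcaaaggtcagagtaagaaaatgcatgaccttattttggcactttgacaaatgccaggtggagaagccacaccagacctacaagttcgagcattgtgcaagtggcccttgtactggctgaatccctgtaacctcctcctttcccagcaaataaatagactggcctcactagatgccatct
Cyp3a59: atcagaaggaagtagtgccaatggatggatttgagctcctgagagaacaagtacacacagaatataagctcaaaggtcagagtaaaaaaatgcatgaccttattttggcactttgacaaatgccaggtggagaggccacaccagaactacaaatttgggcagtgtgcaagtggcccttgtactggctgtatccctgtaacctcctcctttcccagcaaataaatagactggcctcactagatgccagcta

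Upstream of Cyp3a41a and Cyp3a41b the windows differed at 1 base (99.6% identical), and Cyp3a41a was 94.4% identical to Cyp3a44 and 90.9% to Cyp3a16. Cyp3a11 was 71.7% identical to Cyp3a41a, whereas Cyp3a25 was 94.8% identical to Cyp3a59 and only 47.5% to Cyp3a41a. TGTTTAC lay upstream of Cyp3a41a, Cyp3a41b and Cyp3a44 at position -186, of Cyp3a16 at -190 and of Cyp3a11 at -198, and ATCAAT lay at -71 in the first 3 genes and at -75 in Cyp3a16 but in no window of Cyp3a11, Cyp3a13, Cyp3a25 or Cyp3a59. The reverse complement of ATCAAT also lay at -223 upstream of the near-silent Cyp3a57, whose window is not shown. The motifs do not overlap in these windows. Searched on both strands, TGTTTAC was held by 3.17% and ATCAAT by 6.60% of 32536 RefSeq windows of the same length. TTCNNNGAA, the sequence bound by STAT5, was in none of the 8 windows and in 7.04% of all. Other motifs were searched too. CCAAT lay upstream of Cyp3a13, Cyp3a25 and Cyp3a59 and in 33.8% of all windows. AGTTCA lay upstream of Cyp3a11, Cyp3a41a and Cyp3a41b (11.8% of all). AGGTCA lay upstream of Cyp3a11, Cyp3a25, Cyp3a44 and Cyp3a59 (14.0% of all). The windows of Cyp3a41a, Cyp3a41b, Cyp3a44 and Cyp3a16 are closely alike, so a motif they share is not a separate observation for each gene. A match in so short a window is a description and not a binding site.

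Read sharing limits what can be said of single members. The coding sequences of Cyp3a41a and Cyp3a41b were 99.9% identical, those of Cyp3a25 and Cyp3a59 97.5%, and those of Cyp3a11 and Cyp3a41a 95.2%. Only 1.15% of the 50-base stretches of the Cyp3a41a transcript and 6.54% of those of Cyp3a41b matched no other coding transcript and no other place around the cluster, against 71.7% for Cyp3a59, 73.2% for Cyp3a25, 75.1% for Cyp3a44 and 85.2% to 100% for Cyp3a11, Cyp3a16 and Cyp3a13. These shares were taken from 1 coding transcript per gene on NCBIM37, whereas the reads were counted on GRCm39. In the 17 mice with at least 20 reads on the pair, Cyp3a41a took 69.7% to 80.8% of them, with a median of 76.7%. It took the larger part although fewer of its stretches were unique, and the reason was not tested. Their split is therefore uncertain, and the pair was also tested as 1 summed gene, which changed no call for either member. The sum does not bring back reads that matched both genes, which were not counted, so it cannot show what their loss changed.

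**Figure D1:**
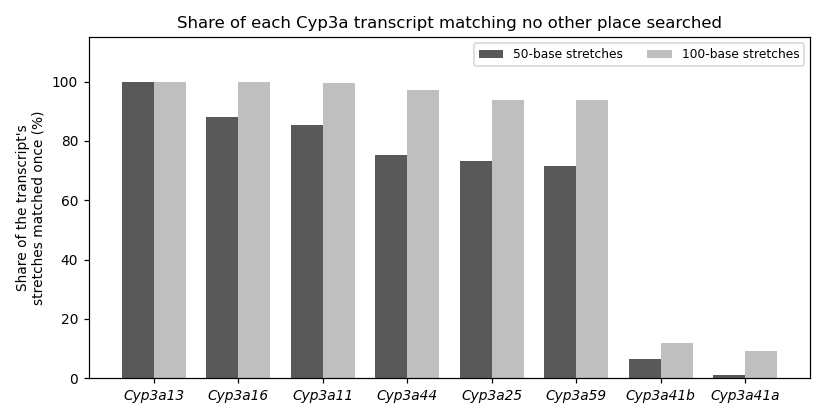
Bars give, for each Cyp3a transcript, the share (%) of its overlapping 50-base (dark) and 100-base (light) stretches that matched no other place searched, namely other coding transcripts and the chromosome 5 region around the cluster. The search used NCBIM37, whereas the reads were counted on GRCm39. Cyp3a41a and Cyp3a41b stand far below the rest at 1.15% and 6.54% for 50 bases and at 9.23% and 11.8% for 100 bases.

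Libraries held 13071874 to 20045141 reads on genes, with a median of 16577748, so that 3 reads corresponded to 0.150 to 0.230 CPM, a count scaled to the reads on genes of its library. Intact and GDX libraries also differed in the share of reads outside genes, 3.47% to 6.20% against 8.52% to 11.3%, and in reads that matched several places, 10.7% to 18.9% against 8.59% to 10.8%, so that library differences, diet length and loss of the gonad cannot be told apart. Xist, expressed from an inactive X chromosome, had 123 to 1138 CPM in XX and 0.352 to 8.36 CPM in XY mice, as labelled, and the 5 hepatocyte markers together had 61746 to 121471 CPM. Markers of neutrophils and Kupffer cells (liver macrophages) were higher in XY mice, and their values are given beside the XX to XY comparisons. Because RNA came from liver tissue, fewer cells of a type and less RNA per cell cannot be told apart.

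The 8 genes took 0.185% to 0.481% of gene reads in a liver. Cyp3a11 supplied 64.5% of these reads on average over the 48 mice, Cyp3a25 23.5%, Cyp3a13 10.2% and Cyp3a59 1.41%. Cyp3a41a, Cyp3a41b, Cyp3a44 and Cyp3a16 together supplied 0.483%, rising to 2.35% in XX Ov Intact mice. Per kilobase of transcript, the mean levels over 48 mice were 812 ± 223 CPM per kb (SD) for Cyp3a11, 341 ± 82.0 for Cyp3a25, 95.4 ± 21.2 for Cyp3a13 and 20.5 ± 7.72 for Cyp3a59. The other 4 genes averaged between 1.18 and 4.23 CPM per kb, with SDs larger than their means. Reads that matched several places were not counted on genes. Only 1.15% and 6.54% of the 50-base stretches of Cyp3a41a and Cyp3a41b were unique. The levels of this pair, and the shares of the 4 genes that include it, may therefore be too low.

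**Figure D2:**
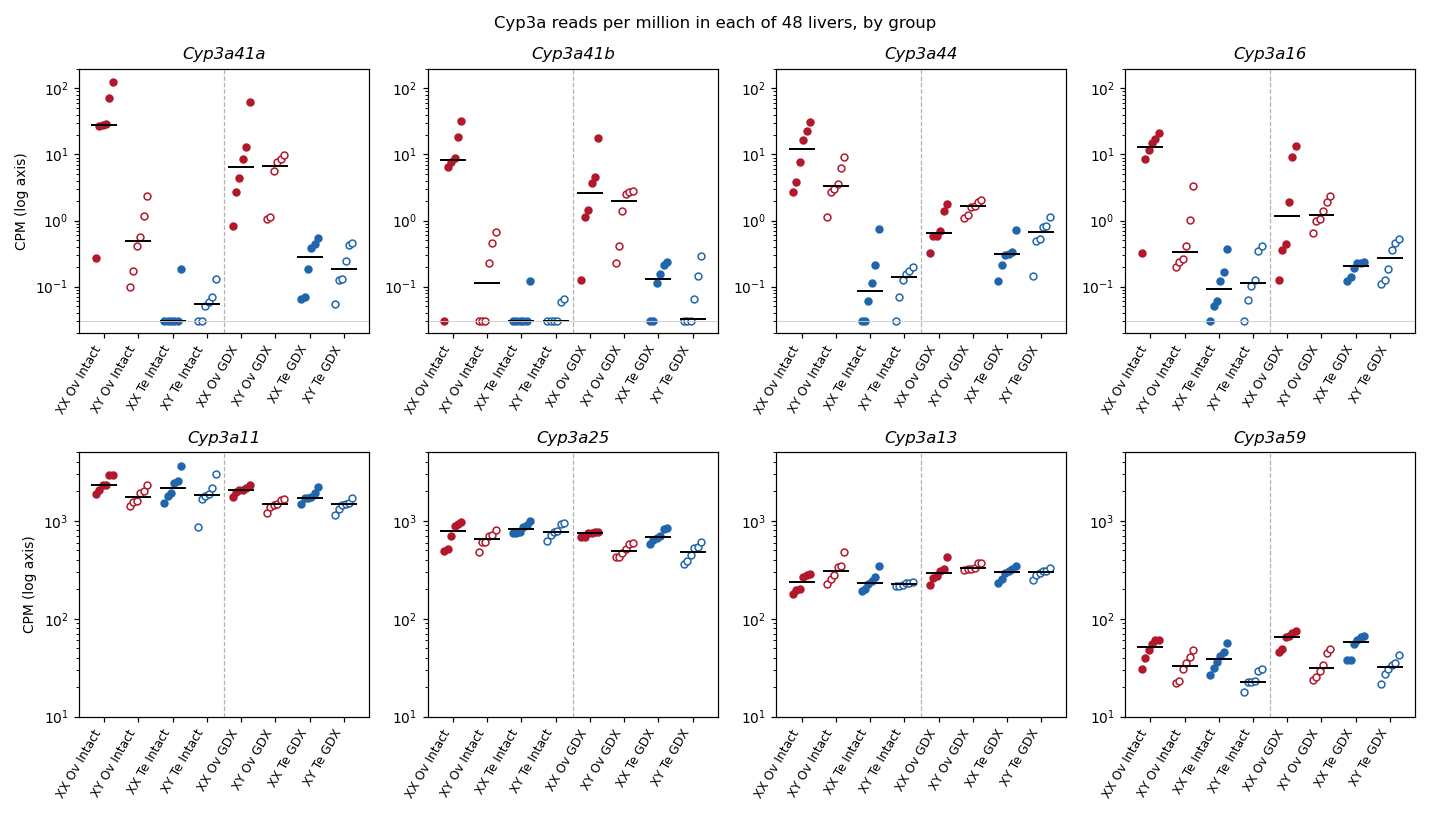
Each point is the CPM of 1 liver on a log axis, red for mice born with ovaries and blue for mice born with testes, filled for XX and open for XY, with 6 mice per group and a bar at the median. Mice with 0 reads are drawn at 0.03, and the dashed line parts Intact from GDX groups. Cyp3a41a, Cyp3a41b, Cyp3a44 and Cyp3a16 (top) range over several powers of 10 and are highest in XX Ov Intact mice, while Cyp3a11, Cyp3a25, Cyp3a13 and Cyp3a59 (bottom) stay within a few-fold.

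The comparison of intact ovaries with intact testes asks what the gonad changes, and 4 of the 8 genes passed it, all higher in mice with ovaries. They were Cyp3a41a, Cyp3a41b, Cyp3a44 and Cyp3a16, against 25.3% of the 15414 genes tested that passed in either direction, and the median log2 fold change of the 8 genes was 2.41 beside 0.04 for all genes. Cyp3a16, Cyp3a41a and Cyp3a41b reached 10 reads in no mouse born with testes and in 15, 20 and 15 of the 24 born with ovaries. Cyp3a44 reached 10 reads in 5 of 24 mice born with testes and in 23 of 24 born with ovaries. All 4 thus passed the filter on low counts wholly or mainly through the group in which they were high. The count is a description.

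Cyp3a44, an enzyme of female liver, had 1.12, 5.02 and 30.9 CPM in the lowest, median and highest of the 12 Ov Intact mice, and 0, 0.118 and 0.740 CPM in the 12 Te Intact mice. Every mouse with ovaries was above every mouse with testes, which held for 0.551% of the genes tested. Cyp3a44 passed the filter on low counts mainly through mice born with ovaries, so its place beside this share is a description. The log2 fold change was 5.73 ± 0.49 (SE; edgeR adjusted p = 1.39e-12), and the pooled level was 60.3 times higher (42.4 to 89.0, a 95% interval for counting error only). Without overlap the difference also stood inside each sex chromosome complement, with 2.66 to 30.9 CPM in XX Ov Intact against 0 to 0.740 in XX Te Intact, and 1.12 to 9.20 in XY Ov Intact against 0 to 0.196 in XY Te Intact.

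Cyp3a41a, which with Cyp3a41b encodes nearly the same steroid-oxidising enzyme, had 0.100, 1.78 and 126 CPM in Ov Intact mice and 0, 0 and 0.185 CPM in Te Intact mice. It was higher in ovary-bearing mice by 7.10 ± 1.01 on the log2 scale (edgeR adjusted p = 7.05e-07), and 10 of the 12 stood above every Te Intact mouse. The 12 Te Intact libraries held 8 reads in all against 5221, a ratio of 622 (316 to 1442).
Cyp3a41b followed with 0, 0.569 and 32.2 CPM against 0, 0 and 0.122 CPM, a log2 fold change of 6.0 ± 1.18 (edgeR adjusted p = 0.000202). Its Te Intact libraries held 4 reads against 1368, a ratio of 326 (127 to 1199). Cyp3a16 had 0.200, 2.18 and 21.3 CPM in Ov Intact mice and 0, 0.113 and 0.408 CPM in Te Intact mice, and was higher by 4.43 ± 0.68 (edgeR adjusted p = 3.08e-06), with 8 of 12 ovary-bearing mice above every testis-bearing one. In these 3 genes the mice that overlapped with the testis groups were mostly XY.

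The remaining genes did not pass this comparison. Cyp3a11 changed by -0.01 ± 0.15 (edgeR adjusted p = 0.981), with medians of 2059 CPM in Ov Intact and 1912 CPM in Te Intact mice, and Cyp3a25 by -0.20 ± 0.13 (0.244), with medians of 700.2 and 782.0 CPM. Cyp3a13 stood at 0.25 ± 0.13 (0.141) and Cyp3a59 at 0.40 ± 0.16 (0.0639), and Cyp3a59 passed in 6 of 48 fits without 1 mouse (0.43 to 0.47). Of the other cell markers, 3 of 5 tested Kupffer cell markers were higher with intact ovaries (median 0.61) and none of 3 neutrophil markers passed (median 1.01), and their part in the Cyp3a values was not tested. All 4 distributions overlapped.

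**Figure D3:**
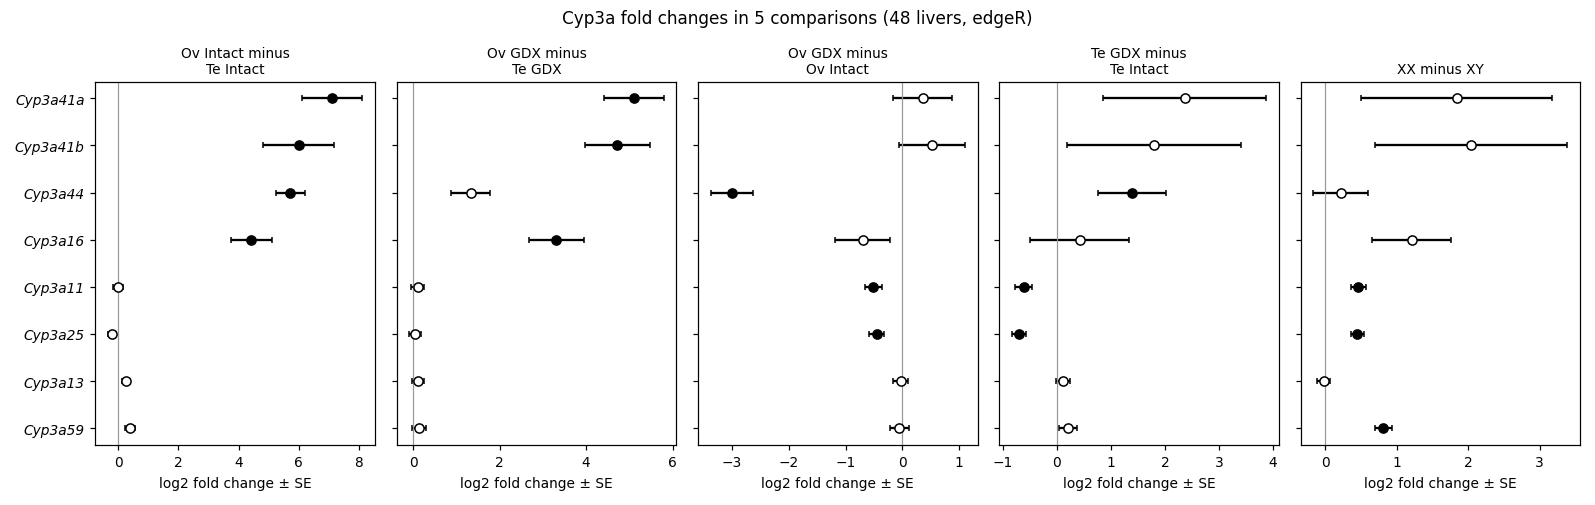
Points are log2 fold changes of each Cyp3a gene and bars their SE from the edgeR fit of 48 livers, filled where the adjusted p was below 0.05, and the horizontal ranges differ between panels. The ovary-high genes lead the first panel at 4.43 to 7.10, only Cyp3a41a, Cyp3a41b and Cyp3a16 are filled in the second, and Cyp3a59, Cyp3a11 and Cyp3a25 are filled for XX minus XY.

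The ovary difference was larger in value in XX than in XY mice. In XX mice the same 4 genes passed, against 5.82% of all genes, with log2 fold changes of 10.51 ± 1.25 for Cyp3a41a (edgeR adjusted p = 4.79e-08), 9.02 ± 1.20 for Cyp3a41b (6.12e-07), 6.59 ± 0.91 for Cyp3a16 (1.47e-06) and 6.38 ± 0.66 for Cyp3a44 (2.13e-09). Cyp3a41a, Cyp3a41b and Cyp3a16 passed the filter on low counts through mice born with ovaries, and Cyp3a44 mainly through them. This count is therefore also a description. XX Te Intact libraries held 3 Cyp3a41a reads and 2 Cyp3a41b reads in all, so those fits depend on the prior count, and the ratios of pooled levels were 1661 (568 to 8056) and 652 (180 to 5389). Cyp3a41a and Cyp3a44 did not overlap between these groups, as was so for 1.80% of all genes.

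In XY mice only Cyp3a44 passed, at 5.07 ± 0.72 (edgeR adjusted p = 2.01e-06), against 15.5% of all genes. It was also the only one without overlap between XY Ov Intact and XY Te Intact, where 3.96% of all genes had none. Since Cyp3a44 passed the filter on low counts mainly through mice born with ovaries, its place beside these shares is a description. Cyp3a41a stood at 3.69 ± 1.64 (0.123), Cyp3a41b at 2.97 ± 1.95 (0.319) and Cyp3a16 at 2.27 ± 1.02 (0.126). Without XY Ov Intact replicate 1 Cyp3a13 also passed (0.54, 0.0369), and DESeq2 also called Cyp3a41a (3.8, adjusted p = 0.00663). All 3 tested neutrophil markers were higher with ovaries in XY mice (median 2.43), and their part was not tested. The difference between the XX and XY ovary effects itself passed for none of the 8 genes (0.00% of all genes): Cyp3a41a was at 6.82 ± 4.07 (edgeR adjusted p = 0.827), 1 member, Cyp3a16, had an unadjusted p under 0.05, and DESeq2 called none.

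A direct comparison of ovary-bearing mice by sex chromosomes was chosen after the values were seen. XX Ov Intact mice had 0.272, 28.4 and 126 CPM of Cyp3a41a, and XY Ov Intact mice had 0.100, 0.490 and 2.38 CPM. The XX mice were higher in 5 of 6 cases, and the exception, replicate 4, had 5 reads of Cyp3a41a, 6 of Cyp3a16 and 0 of Cyp3a41b but 49 of Cyp3a44. Here 4 genes passed, all higher in XX, against 7.79% of all genes, and none was free of overlap, as 3.81% of all genes were. They were Cyp3a41a, Cyp3a41b, Cyp3a16 and Cyp3a44, which passed the filter on low counts wholly or mainly through mice born with ovaries. In XY Ov Intact mice Cyp3a41a had 3 reads or fewer in 2 of 6 and Cyp3a41b in 3 of 6. The count is a description.

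Cyp3a41a was higher in XX Ov Intact than in XY Ov Intact mice by 6.06 ± 0.85 (edgeR adjusted p = 1.41e-06), Cyp3a41b by 5.93 ± 0.89 (4.49e-06) and Cyp3a16 by 3.88 ± 0.71 (0.000126). Cyp3a44, with 2.66, 12.0 and 30.9 CPM against 1.12, 3.33 and 9.20 CPM, was higher by 1.81 ± 0.47 (0.00866), a call lost without XX Ov Intact replicate 1 (1.40, 0.0614) and in a fit of the 2 compared groups alone (1.74, 0.260). Cyp3a59, at 0.67 ± 0.23 (0.0664), passed without XX Ov Intact replicate 4 (0.80) or XY Ov Intact replicate 5 (0.82). Neutrophil markers summed to 1.49 to 18.4 CPM in the XX and 41.5 to 705 CPM in the XY livers (4 of 4 found), and Kupffer cell markers to 225 to 559 and 410 to 861 CPM (5 of 6 found), and their part in the result was not tested. In Te Intact mice no gene passed the same comparison, against 2.10% of all genes, with 1 unadjusted p under 0.05 (Cyp3a59, 0.60 ± 0.23) and none called by DESeq2. The 4 genes were near the detection limit there: the highest XX or XY Te Intact mouse had 0.740 CPM of Cyp3a44.

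Removing the ovaries lowered Cyp3a44 most. Its 12 Ov GDX mice had 0.318, 1.31 and 2.04 CPM after 1.12, 5.02 and 30.9 in Ov Intact mice, a log2 fold change of -3.00 ± 0.37 (edgeR adjusted p = 3.89e-09). In all, 3 of the 8 genes passed the ovariectomy comparison, all lower after surgery, against 69.4% of all genes, and the other 2 were Cyp3a11 and Cyp3a25, described below with castration. The median of the 8 genes was -0.25 beside 0.06 for all genes. Cyp3a41a stood at 0.36 ± 0.52 (0.548), Cyp3a41b at 0.53 ± 0.58 (0.421) and Cyp3a16 at -0.70 ± 0.49 (0.202; -1.12 and 0.0376 without XX Ov GDX replicate 1). Neutrophil markers fell in 3 of 3 cases (median -2.79) and Kupffer cell markers in 3 of 5 (median -0.57), and their part was not tested.

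Split by sex chromosomes, again after the values were seen, the Cyp3a41 pair had fitted ovariectomy changes of opposite sign. The difference between the XX and XY changes did not pass for either gene, as given below. In XX mice Cyp3a41a went from 0.272, 28.4 and 126 CPM to 0.828, 6.45 and 61.9 CPM, a log2 change of -1.87 ± 0.66 (edgeR adjusted p = 0.0154). In XY mice it went from 0.100, 0.490 and 2.38 CPM to 1.05, 6.67 and 9.96 CPM, a change of 2.59 ± 0.83 (0.00717). After surgery the medians of the XX and XY groups were alike, and their ranges overlapped.

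In XX mice 4 genes passed, all lower, against 55.1% of all genes. Cyp3a44 fell by 4.24 ± 0.55 on the log2 scale (edgeR adjusted p = 3.61e-07), and its XX Ov GDX mice, at 0.318 to 1.81 CPM, were all below its XX Ov Intact mice, at 2.66 to 30.9 CPM, as was so in one direction or the other for 18.6% of all genes. Cyp3a16 was at -1.74 ± 0.62 (0.0171) and Cyp3a41b at -1.58 ± 0.64 (0.0352). These calls and that of Cyp3a41a were thin: DESeq2 called Cyp3a44 alone, without XX Ov Intact replicate 1 none of the 3 passed (-1.25 for Cyp3a41a, -1.49 for Cyp3a16 and -0.99 for Cyp3a41b), the Cyp3a41b call was lost in 7 of 48 fits without 1 mouse, and without XX Ov GDX replicate 1, the mouse with 61.9 CPM of Cyp3a41a, Cyp3a41a stood at -3.22 and Cyp3a41b at -2.71. Cyp3a11, at -0.45 ± 0.22 (0.0804), passed in 3 of the 48 fits.

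In XY mice 5 genes passed, against 59.4% of all genes. Cyp3a41b rose with Cyp3a41a, by 2.63 ± 0.95 (edgeR adjusted p = 0.0163), from 0, 0.114 and 0.679 CPM to 0.230, 1.95 and 2.77 CPM. Cyp3a44 fell by 1.77 ± 0.51 (0.00315), Cyp3a25 by 0.65 ± 0.19 (0.00324) and Cyp3a11 by 0.57 ± 0.22 (0.0233). Without XY Ov GDX replicate 2 or XY Ov Intact replicate 5 or 6 the Cyp3a11 call was lost (-0.52, -0.52 and -0.39). The difference between the XX and XY responses passed for none of the 8 genes (0.00% of all genes): it was -4.46 ± 1.06 for Cyp3a41a (edgeR adjusted p = 0.232), 4 members had an unadjusted p under 0.05, and DESeq2 called none. Without XX Ov GDX replicate 1 it was -5.81 for Cyp3a41a (0.00734).

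**Figure D4:**
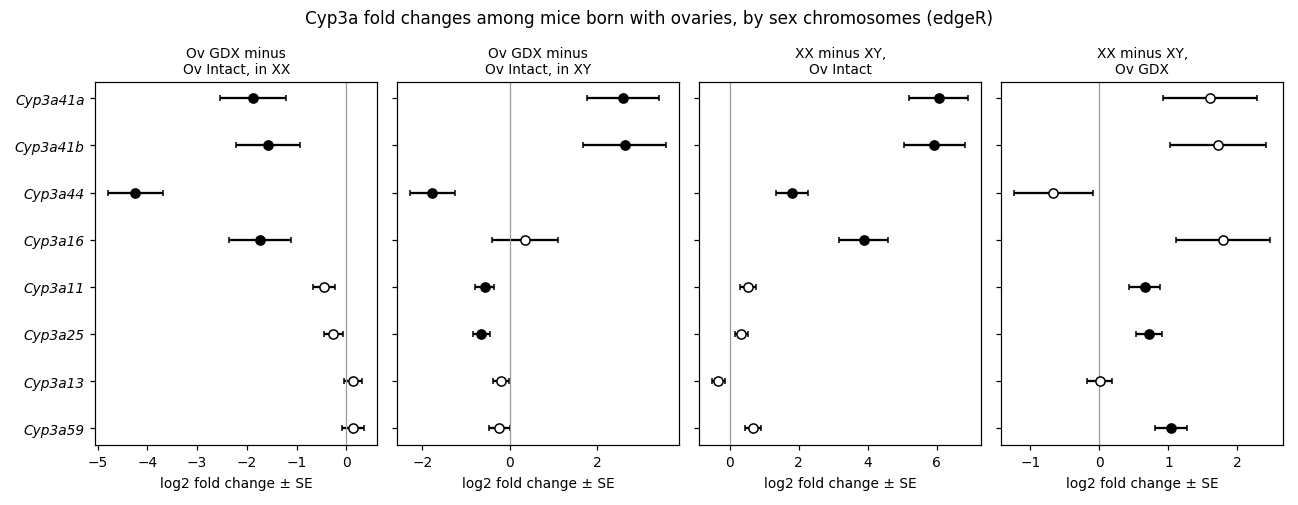
Points are log2 fold changes ± SE from the edgeR fit, filled where the adjusted p was below 0.05, for ovariectomy within XX and within XY mice and for XX minus XY before and after ovariectomy, with horizontal ranges that differ between panels. Cyp3a41a and Cyp3a41b stand at -1.87 and -1.58 in XX and at 2.59 and 2.63 in XY, and their XX minus XY values are 6.06 and 5.93 in Ov Intact mice and 1.60 and 1.72 in Ov GDX mice.

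After gonadectomy the Cyp3a41 pair and Cyp3a16 still differed by the gonad the mice were born with. Only 14 of the 15414 genes (0.0908%) differed between Ov GDX and Te GDX mice, and 3 of them were Cyp3a genes, all higher in former ovary bearers. These 3 passed the filter on low counts through mice born with ovaries. The split of the Cyp3a41 pair is also uncertain, so the count is a description. Cyp3a41a had 0.828, 6.67 and 61.9 CPM in Ov GDX mice and 0.0545, 0.214 and 0.539 CPM in Te GDX mice, without overlap, as was so for 0.0324% of all genes. It was higher by 5.10 ± 0.69 (edgeR adjusted p = 1.24e-05), with 2029 reads against 50 and a ratio of 40.4 (30.5 to 54.6).

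Cyp3a41b, at 0.127, 2.0 and 18.1 CPM against 0, 0.0887 and 0.290 CPM, was higher by 4.73 ± 0.75 (edgeR adjusted p = 0.000318). Cyp3a16, at 0.127, 1.23 and 13.6 CPM against 0.109, 0.208 and 0.524 CPM, was higher by 3.31 ± 0.64 (0.00687), with 9 of 12 former ovary bearers above every former testis bearer. Cyp3a44 did not pass, at 1.33 ± 0.46 (0.95), and the values of the other 4 genes lay between 0.04 and 0.14. The 12 Ov GDX mice here are also those of the ovariectomy comparison.

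After castration, the loss of testes, 3 genes passed, against 63.3% of all genes, and DESeq2 called 4. Cyp3a11 had 875, 1912 and 3599 CPM in Te Intact mice and 1148, 1614 and 2235 CPM in Te GDX mice, and fell by 0.62 ± 0.16 on the log2 scale (edgeR adjusted p = 0.000719), with overlapping groups. Cyp3a25, a close relative of Cyp3a59 whose substrates are less well known, had 619, 782 and 986 CPM before and 363, 592 and 845 CPM after, and fell by 0.70 ± 0.13 (1.83e-05), with 7 of 12 castrated mice below every intact one. The median of the 8 genes was 0.32 beside 0.07 for all genes. The summed Cyp3a41 pair did not pass, at 2.29 ± 1.38 (edgeR adjusted p = 0.144). Above every Te Intact mouse stood 6 of 12 Te GDX mice for Cyp3a41a and 5 of 12 for Cyp3a41b. Both genes had 3 reads or fewer in all 12 Te Intact mice.

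Cyp3a44 rose after castration from 0, 0.118 and 0.740 CPM to 0.120, 0.411 and 1.11 CPM, by 1.40 ± 0.63 (edgeR adjusted p = 0.0499). The call rests on 31 and 95 reads over 12 mice each, a ratio of 3.26 (2.15 to 5.06), and it was lost in 34 of 48 fits that left out 1 mouse and with DESeq2 size factors (0.0519). Its responses to the loss of the testes and of the ovaries differed, by 4.40 ± 0.73 (edgeR adjusted p = 6.68e-05), and it was the only member to pass this test, against 5.60% of all genes. As Cyp3a44 passed the filter on low counts mainly through mice born with ovaries, that count is a description. After either operation the Cyp3a44 medians, 1.31 and 0.411 CPM, lay between those of Ov Intact and Te Intact mice.

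Ovariectomy lowered Cyp3a11 and Cyp3a25 as well. Cyp3a11 went from 1420, 2059 and 2947 CPM to 1198, 1709 and 2348 CPM, a change of -0.51 ± 0.15 (edgeR adjusted p = 0.00365), and Cyp3a25 from 485, 700.2 and 975 CPM to 425, 639 and 761 CPM, a change of -0.45 ± 0.13 (0.00249). With library totals in place of TMM scaling the median of all genes moved up by 0.20 in the castration and by 0.21 in the ovariectomy comparison, and the ovariectomy values became -0.26 for Cyp3a11 (0.0630) and -0.20 for Cyp3a25 (0.0782), while the castration values stayed past the threshold at -0.38 and -0.48 and were joined by Cyp3a13 (0.32, 0.00703) and Cyp3a59 (0.42, 0.0115). Hepatocyte markers moved as well: 3 of 5 fell and 1 rose after ovariectomy (median -0.29), and 2 fell and 1 rose after castration (median -0.25), when 2 of 3 neutrophil markers and 1 of 5 Kupffer cell markers fell, and their part was not tested. Taken relative to the median of all genes, the ovariectomy values were -0.57 and -0.51 with TMM scaling and -0.53 and -0.47 with library totals.

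Within XX mice, castration moved none of the 8 genes past the threshold, against 37.1% of all genes, with 1 unadjusted p under 0.05 (Cyp3a11, -0.44 ± 0.22) and 1 call by DESeq2 (Cyp3a41a). Without XX Te Intact replicate 1 Cyp3a11 passed (-0.55, 0.0455). Within XY mice it moved 3, against 56.7% of all genes. Cyp3a25 there had 619, 776 and 943 CPM before and 363, 484 and 607 CPM after, so that every castrated mouse was below every intact one, and fell by 1.08 ± 0.19 (edgeR adjusted p = 8.81e-06). Cyp3a11 fell by 0.79 ± 0.22 (0.00245; by 0.51 without XY Te Intact replicate 3), and Cyp3a44 rose by 2.04 ± 0.87 (0.0435), from 12 reads over 6 mice to 64, a call lost in 8 of 48 fits without 1 mouse (0.0527 to 0.0891). Groups without overlap, as for Cyp3a25, were seen in 22.3% of all genes in this comparison. The castration response was not tested for a difference between XX and XY mice.

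Cyp3a59, a neighbour of Cyp3a25 of little-known function, was higher in XX than in XY mice both with and without gonads. Its 24 XX mice had 26.4, 52.3 and 75.0 CPM and its 24 XY mice 17.9, 30.0 and 48.8 CPM, and XX mice were higher by 0.81 ± 0.12 (edgeR adjusted p = 1.85e-07). In all, 3 of the 8 genes passed the comparison of XX with XY mice over all groups, all higher in XX, against 36.7% of all genes, and the other 2 were Cyp3a11, higher by 0.46 ± 0.11 (0.000723), and Cyp3a25, higher by 0.44 ± 0.09 (0.000149). The groups overlapped for all 3. DESeq2 called 6, adding Cyp3a16, Cyp3a41a and Cyp3a41b, whose XX minus XY values in edgeR were 1.21 ± 0.55 (0.0836), 1.84 ± 1.34 (0.301) and 2.04 ± 1.35 (0.247). In edgeR Cyp3a16 passed without XX Ov Intact replicate 4 (1.27) or XY Ov Intact replicate 1 (1.47).

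In Intact mice Cyp3a59 alone passed, against 10.7% of all genes, at 0.63 ± 0.16 (edgeR adjusted p = 0.00660), joined by Cyp3a11 without XY Te Intact replicate 3 (0.46, 0.0406). In GDX mice 3 genes passed, against 34.3%: Cyp3a59 at 0.99 ± 0.16 (4.20e-06), Cyp3a25 at 0.73 ± 0.13 (1.80e-05) and Cyp3a11 at 0.58 ± 0.16 (0.00284). None of the 8 was free of overlap between XX GDX and XY GDX mice, as 7.23% of all genes were. Neutrophil markers summed to 0.0763 to 1.88 CPM in XX GDX and 1.22 to 83.8 CPM in XY GDX livers, and Kupffer cell markers to 119 to 330.5 and 270 to 1059 CPM. All 3 tested neutrophil markers and 4 of the 5 Kupffer cell markers were lower in XX mice in this comparison, and their part in the Cyp3a values was not tested. The change of the XX to XY difference with gonadectomy passed for none of the 8 genes, against 2.12% of all genes, with Cyp3a25 at 0.58 ± 0.19 (0.0854), 2 unadjusted p under 0.05 and none called by DESeq2. Without XY Te Intact replicate 5 it passed for Cyp3a25 (0.62, 0.0384).

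By gonad, again chosen after the values were seen, the Ov GDX mice gave 3 genes higher in XX, against 19.1% of all genes. Cyp3a11 had 1744, 2074 and 2348 CPM in XX Ov GDX and 1198, 1476 and 1674 CPM in XY Ov GDX mice, and Cyp3a25 had 678, 758 and 761 CPM against 425, 494 and 601 CPM. Neither overlapped, as was so for 15.9% of all genes. The log2 fold changes were 0.66 ± 0.22 for Cyp3a11 (edgeR adjusted p = 0.0286), 0.72 ± 0.19 for Cyp3a25 (0.00424) and 1.04 ± 0.23 for Cyp3a59 (0.000843), and that of Cyp3a11 was lost in 8 of 48 fits without 1 mouse. Cyp3a16 at 1.79 (0.0601), Cyp3a41a at 1.60 (0.0959) and Cyp3a41b at 1.72 (0.0793) did not pass, but all 3 did without XX Ov Intact replicate 4 or XX Ov GDX replicate 4, which gave 6 genes, and Cyp3a16 passed in 6 of the 48 fits. Kupffer cell markers summed to 174 to 330.5 and 429 to 839 CPM in these 2 groups. In Te GDX mice 2 genes passed, against 19.4%, namely Cyp3a25 at 0.75 ± 0.19 (0.00258) and Cyp3a59 at 0.94 ± 0.23 (0.00228).

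Cyp3a13, which lies apart from the cluster, passed in none of the comparisons. Its group means ran from 224 ± 8.38 CPM (SD, n = 6) in XY Te Intact to 340 ± 26.6 CPM in XY Ov GDX mice, and no step between neighbouring groups exceeded the larger SD. In XY mice castration took it from 214, 225 and 236 CPM to 246, 299 and 333 CPM without overlap, but its fitted change was 0.05 ± 0.18 (edgeR adjusted p = 0.814) with TMM scaling and 0.39 (0.0199) with library totals, where the median of all genes moved by 0.32.

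Ordered by group means, Cyp3a41a, Cyp3a41b and Cyp3a16 ran from XX Ov Intact over XX Ov GDX, XY Ov GDX and XY Ov Intact to the 4 groups with testes, and Cyp3a44 from XX Ov Intact over XY Ov Intact, XY Ov GDX and XX Ov GDX to the same 4. Among the ovary groups, a step larger than the larger SD of its neighbours separated XX Ov Intact from XX Ov GDX for Cyp3a16, XY Ov GDX from XY Ov Intact for Cyp3a41a and Cyp3a41b, and XY Ov GDX from XX Ov GDX for Cyp3a44. For Cyp3a59 all 4 XX groups stood above all 4 XY groups, from 62.3 ± 11.9 CPM in XX Ov GDX to 24.4 ± 4.88 in XY Te Intact. Cyp3a11 and Cyp3a25 had their 2 lowest means in XY Ov GDX and XY Te GDX, at 1477 ± 175 and 1440 ± 193 CPM and at 504 ± 75.4 and 479 ± 95.7 CPM, each below the next group by more than the larger SD.

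Among 10 nuclear receptors and other transcription factors of Cyp3a genes, 1 was higher and 4 were lower with intact ovaries, and 5 rose after castration and 6 after ovariectomy with none lower, where 25.3%, 63.3% and 69.4% of all genes passed in either direction. Their median log2 fold changes were -0.22, 0.17 and 0.30, beside 0.04, 0.07 and 0.06 for all genes. Nr1i3 was higher with ovaries by 0.45 ± 0.13 (edgeR adjusted p = 0.0117) and Nr1i2 lower, at -0.25 ± 0.09 (0.0282), and after ovariectomy Nr1i2 rose by 0.51 ± 0.09 (1.55e-06). Onecut1, which encodes HNF6, rose after castration by 0.77 ± 0.31 (0.0273), as did the FOXA gene Foxa2, by 0.58 ± 0.12 (9.94e-05).

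Of 10 other targets of Nr1i2 and Nr1i3, 2 were higher and 2 lower with intact ovaries (25.3% of all genes passed), and 4 rose and 3 fell after each operation (63.3% and 69.4%). Their medians were -0.22 with intact ovaries, 0.12 after castration and 0.29 after ovariectomy, beside 0.04, 0.07 and 0.06 for all genes. The largest changes were in the transporters Abcb1a, which rose by 2.15 ± 0.20 after castration (edgeR adjusted p = 1.57e-11), and Slco1a4, which rose by 1.87 ± 0.17 (3.92e-12), and in Cyp2c55, which fell by 1.24 ± 0.21 (2.58e-06), and the retinal dehydrogenase Aldh1a1, which fell by 1.10 ± 0.22 (3.46e-05). In XX mice 9 of the 10 were higher than in XY mice and none lower, with a median of 0.48 beside 0.05 for all genes, of which 36.7% passed.

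Of 7 tested electron donors and enzymes of haem supply, 2 were lower with intact ovaries and none higher, 2 rose and 4 fell after castration, and 1 rose and 4 fell after ovariectomy, where 25.3%, 63.3% and 69.4% of all genes passed. Their medians were -0.01, -0.48 and -0.18 beside 0.04, 0.07 and 0.06 for all genes. Por, the reductase, rose by 0.90 ± 0.14 after castration (edgeR adjusted p = 3.54e-07) and by 0.78 ± 0.14 after ovariectomy (3.01e-06). Pgrmc1, a haem-binding partner of cytochromes P450, fell by 1.10 ± 0.15 (1.60e-08) after ovariectomy. Alas1, the first enzyme of haem synthesis, rose by 0.67 ± 0.17 after castration (0.000957).

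Among 13 genes of growth hormone signalling and sex-biased repression, 6 were higher and 2 lower with intact ovaries, where 25.3% of all genes passed. Cux2, a female-predominant transcription factor, was higher by 5.31 ± 0.44 (edgeR adjusted p = 6.06e-13) and rose by 6.04 ± 0.44 after castration (1.82e-14), and Bcl6, a male-predominant repressor, was lower, at -1.72 ± 0.24 (3.86e-07). Esr1, the oestrogen receptor, rose by 1.52 ± 0.13 after castration (8.18e-13), and Cish, a feedback inhibitor of the growth hormone signal, by 1.43 ± 0.31 (0.000142). After castration 8 of the 13 rose and 2 fell, and after ovariectomy 6 rose and 1 fell, where 63.3% and 69.4% of all genes passed. The medians of the 13 were 0.31 with intact ovaries, 0.40 after castration and 0.31 after ovariectomy, beside 0.04, 0.07 and 0.06 for all genes. None passed between Ov GDX and Te GDX mice, where only 0.0908% of all genes passed. A difference between this list and Cyp3a41a, Cyp3a41b and Cyp3a16, which passed there, was not tested.

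Over the 48 mice the log2 CPM of Cyp3a41a was most like that of ENSMUSG00000106040, with a Pearson r of 0.924, then of Gm4794 (0.840) and the sulfotransferase gene Sult2a3 (0.814). Cyp3a16 was most like the same unnamed gene (0.885) and Sult2a4 (0.837), and Cyp3a44 most like ENSMUSG00000108431 (0.846), Cyp2c68 (0.835) and Fut8 (0.813). Cyp3a11 was nearest to Decr1 (0.857), Acads (0.850) and Urod (0.847), Cyp3a25 to Perp (0.898), Nudt12 (0.894) and Sypl (0.893), Cyp3a13 to Pdia5 (0.803) and Cyp3a59 to Agmo (0.779). These values describe 48 libraries that share group, depth and scaling.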

How the data were processed

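Liver RNA of 48 mice was sequenced from KAPA mRNA HyperPrep libraries, and the authors aligned the reads to GRCm39 and counted them per gene with STAR 2.7.10a. They deposited raw counts, unnormalized, whole numbers per gene, and used DESeq2 1.36.0. The study's methods give single 50-base reads for RNA-seq without naming these libraries, and strand setting and annotation release are not given in the sources used here. Symbols were found for 31020 of 55414 genes, and 4 summary lines were left out. The 8 genes and the lists were chosen with earlier results of these data known. Mice are separate samples by label, and replicate numbers only name them.

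Counts of all 48 mice were fitted with edgeR 4.0.16 (quasi-likelihood, TMM, filterByExpr, 8 group means), and p-values were adjusted by Benjamini-Hochberg over 15414 genes, with 0.05 as the threshold. Of the comparisons, 12 were planned and 9, within XX, XY or 1 gonad, were added. CPM is the count scaled to the reads on genes of a library. Ratios carry exact 95% intervals for counting error only. Named genes were the 8 members, up to 4 list genes past the threshold with the largest changes, and the 3 genes most alike by Pearson r of log2 CPM (prior count 2). A gene that this rule names is not reported here. The model was tested on simulated data (95% of 100 genes changed by a log2 of 2 and 85% of 100 changed by 1 recovered in the gonadal comparison, over 15007 genes). The alternatives were DESeq2 size factors, library totals, 2 other filters, the compared groups alone, 1 surrogate variable, DESeq2 1.42.0 and leaving out each mouse. Within groups, no 2 libraries agreed within sampling noise.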

Additional observations from a re-analysis of the deposited data

Results flagged for a closer look

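In 64 checks of 6 mice each, 7 held a mouse whose gap to the next was above Dixon's 95% critical value. Chance gives about 1 in 20 only for normally distributed values. All 7 were in Cyp3a16, Cyp3a41a, Cyp3a41b or Cyp3a44, where few reads can make such a gap, so 7 cannot be set against that rate. XX Ov GDX replicate 1 was far above its group in Cyp3a41a (61.9 CPM) and Cyp3a41b (18.1 CPM), and XY Ov Intact replicate 1 in Cyp3a16 (3.34 CPM). The others were single mice in groups near 0, namely XX Te Intact replicate 4 in Cyp3a41a (0.185 CPM) and Cyp3a44 (0.740 CPM), XX Te Intact replicate 6 in Cyp3a41b (0.122 CPM) and XX Te GDX replicate 6 in Cyp3a44 (0.708 CPM). The castration and ovariectomy effects on Cyp3a44 differed by 4.40 on the log2 scale in a test of the difference itself.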

How the results depend on the processing

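No paired analysis was possible because replicate numbers only name the mice in accession order, and nothing in the labels links mice across groups. The filter of at least 10 counts in every mouse removed Cyp3a16, Cyp3a41a, Cyp3a41b and Cyp3a44, so that 0 members passed in the ovary comparisons of all Intact, XX Intact, XY Intact and GDX mice and in castration minus ovariectomy. With only the compared groups, 1 member passed the ovary comparison in XX, since the other 3 fell below the filter. In XY, 2 passed that comparison with library totals, with 1 surrogate variable and in DESeq2, and 1 to 2 when single mice were left out. Castration gave 5 members with library totals and with the surrogate variable, and ovariectomy 1 with each. XX against XY mice gave 6 in DESeq2 over all mice, and in Intact mice 2 with the surrogate variable, 3 in DESeq2 and 1 to 2 without single mice. The change of that difference with gonadectomy gave 0 to 1 without single mice. The other counts of the 12 planned comparisons stayed within 1.5 times the reported ones. In the added ones, leaving out single mice gave 2 to 6 members for XX against XY Ov GDX mice, 1 to 5 for ovariectomy in XX, and 0 to 1 for castration in XX and for ovariectomy in XX minus XY.

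Values that changed sign were small or rested on few reads, and none was past the threshold in the reported fit. With library totals these were Cyp3a13 in the ovary comparison in XX (-0.062), after ovariectomy (0.22) and in XY (0.081), and in XX against XY mice after GDX (-0.092), in Ov GDX (-0.17) and in Te GDX (-0.013). They were also Cyp3a59 after ovariectomy (0.19) and in XY (0.037) and in the XX minus XY ovary effect (-0.14), and Cyp3a25 in XX against XY Te Intact mice (0.080). With the surrogate variable they were Cyp3a11 in the ovary comparison (0.00090), Cyp3a13 in it in XX (-0.066), after ovariectomy (0.22) and in XY (0.065), and in XX against XY in GDX (-0.015) and Ov GDX mice (-0.039). The same setting turned Cyp3a59 after ovariectomy (0.15) and in the XX minus XY ovary effect (-0.11), Cyp3a25 after ovariectomy in XX (0.015), and Cyp3a25 (0.21) and Cyp3a41b (0.14) in XX against XY Te Intact mice. The filter of 10 counts turned Cyp3a11 in the ovary comparison (0.0081) and Cyp3a13 after ovariectomy (0.0043). Cyp3a13 in XX against XY Ov GDX mice, reported at 0.0036, was -0.030 with DESeq2 size factors, -0.084 without a filter, -0.039 with 10 counts, -0.058 with the compared groups and -0.030 in DESeq2. The summed 4 ovary-high genes stood at -0.79 after ovariectomy and at -0.27 in XX against XY Te GDX mice. Cyp3a41a, the gene they were set beside, was positive in both. The sum passed the ovary comparison in XY mice (4.03, edgeR adjusted p = 0.00116), and Cyp3a41a did not. The same held for XX against XY mice over all groups (1.25, 0.0211). After ovariectomy in XY mice Cyp3a41a passed, and the sum, at 0.42, did not. The sum kept the direction and side of the threshold in 9 of 12 planned and 7 of 9 added comparisons. It includes Cyp3a44, so it does not test the split of the pair alone.

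Leaving out 1 mouse at a time changed the sign of these values. For Cyp3a11 the ranges were -0.10 to 0.11 in the ovary comparison, -0.36 to 0.065 in it in XY, -0.20 to 0.011 for castration minus ovariectomy, -0.032 to 0.41 in XX against XY Te Intact mice and -0.095 to 0.21 for ovariectomy in XX minus XY. For Cyp3a13 they were -0.090 to 0.19 in the ovary comparison in XX, -0.091 to 0.055 after ovariectomy, and -0.093 to 0.023, -0.072 to 0.13 and -0.12 to 0.087 in XX against XY mice over all, in Te Intact and in Ov GDX. Cyp3a25 ran from -0.21 to 0.090 in the ovary comparison in XX and from -0.11 to 0.088 in XX against XY Te Intact mice, where Cyp3a16 ran from -1.07 to 0.043, Cyp3a41b from -2.0 to 0.44 and Cyp3a44 from -0.66 to 0.77. After ovariectomy Cyp3a41a ran from -0.32 to 0.73, Cyp3a41b from -0.038 to 0.90 and Cyp3a59 from -0.12 to 0.027. Cyp3a44 ran from -0.079 to 0.29 in XX against XY mice, and Cyp3a59 from -0.073 to 0.18 for castration in XY and from -0.072 to 0.22 in the XX minus XY ovary effect. The cause of these changes was not tested.

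Library totals in place of TMM moved the share of higher calls among all genes from 55.6% to 68.0% in the ovary comparison, from 52.7% to 69.4% after castration, from 51.9% to 66.1% after ovariectomy and from 59.8% to 28.2% in XX against XY mice. Of 626 values of members refitted in the planned comparisons, fits without single mice left aside, 586 kept direction and side of the threshold. A gene that a filter removed gave no such value, so its lost calls are not among the changes. The filter of 10 counts gave 48 such values, against 96 with library totals. In mice with testes, Cyp3a16, Cyp3a41a and Cyp3a41b were at or near the 3-read limit, so that their differences among these groups rest on few reads.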
